A study of Mus musculus with 7 samples.

Results

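The enzymes that break down phenylalanine and tyrosine in the liver were examined in mouse primary hepatocytes after transfection with miR-709. The genes were *Qdpr*, *Pcbd1*, *Tat*, *Hpd*, *Hgd*, *Gstz1* and *Fah*, each taken as the probe set whose single gene symbol was that name, which gave 7 probe sets for 7 genes among 19938 genes on the arrays. Primary hepatocytes are liver parenchymal cells used soon after isolation, here from male C57BL/6J mice and cultured in medium that held insulin and dexamethasone. They were transfected with 1 µg of a miR-709 mimic (4 arrays, replicates A to D) or with 1 µg of the control miRNA Cel-239b, of *Caenorhabditis elegans* (3 arrays, replicates B to D). Total RNA was taken 24 h later and measured on 1 array per replicate. The mimic raises miR-709 above what the cells already make, and no untransfected cells were among the arrays. It is not stated whether the replicates came from separate mice or isolations, and the p-values therefore cover the spread among these 7 arrays and nothing wider.

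Phenylalanine is hydroxylated to tyrosine in the liver with tetrahydrobiopterin as cofactor. The spent cofactor is dehydrated by *Pcbd1* and reduced by *Qdpr*. Tyrosine then loses its amino group through *Tat*, and *Hpd* turns the product into homogentisate. *Hgd* opens the ring of homogentisate, *Gstz1* isomerises maleylacetoacetate, and *Fah* splits fumarylacetoacetate into fumarate and acetoacetate. Inherited loss of *Hgd* causes alkaptonuria, and inherited loss of *Fah*, *Tat* or *Hpd* causes forms of tyrosinaemia. The hydroxylation step itself was not analysed here.

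The values are log2 signals after RMA, which equalises the distributions of probe intensities between arrays before they are summarised to probe sets. They ran from 1.92 to 14.08, and the median of an array was 5.04 to 5.07. Arrays correlated at 0.997 to 0.998 within a treatment and at 0.995 to 0.997 between treatments. The hepatocyte marker *Alb* was at 13.41 to 13.48 on miR-709 arrays and at 13.46 to 13.52 on Cel-239b arrays. Among markers of other liver cells, the mean log2 signal was under 5 for 4 of 7 cholangiocyte, 4 of 8 stellate, 3 of 8 sinusoidal endothelial and 8 of 10 Kupffer cell and leukocyte markers. It was under 5 for 8968 of all 19938 genes, so these counts do not show how many such cells there were. Some markers were bright, such as *Cd68* at 10.60 to 10.82 with miR-709 and 10.44 to 10.76 with Cel-239b. *Sox9* was at 7.44 to 7.71 with miR-709 and 7.70 to 8.01 with Cel-239b. The mean level of the cholangiocyte markers was 5.11 to 5.31 on miR-709 arrays and 5.46 to 5.52 on Cel-239b arrays. *Krt19* was the 1 marker called (log2 fold change -1.23, standard error 0.26), a call lost without any single array other than miR-709 replicate A. *Krt19* had the largest change of the 7 and weighed most on that mean. The median log2 fold change of the 7 was -0.12, with 1 above 0. The mean levels of the marker lists of the other 3 cell types overlapped between the treatments. They were 4.90 to 4.97 with miR-709 and 4.95 to 5.02 with Cel-239b for stellate cells, and 4.59 to 4.67 with miR-709 and 4.61 to 4.65 with Cel-239b for Kupffer cells and leukocytes. Endothelial markers had 4.96 to 5.04 with miR-709 and 4.90 to 5.01 with Cel-239b. Of these single markers, the endothelial *Oit3* did not overlap, with 6.03 to 6.11 on miR-709 arrays and 5.78 to 5.98 on Cel-239b arrays. In bulk RNA, fewer cells of a type and less RNA per cell cannot be told apart. Interferon response genes averaged 1.11 above the Cel-239b mean on miR-709 replicates C and D each, and were at -0.09 on A and -0.05 on B, with -0.18, -0.09 and 0.27 on Cel-239b replicates B to D. The part of the cholangiocyte markers and interferon genes in the results was not tested.

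With miR-709, *Hgd* and *Tat* were higher, *Gstz1* was higher on every array without passing the threshold, and the arrays of the other 4 enzymes overlapped between treatments. The 7 genes were chosen with the results of this comparison known, so their changes are given as a description and no p is attached to them. Past an adjusted p of 0.05 from limma over all genes, 2 of the 7 were higher and 0 were lower, where 1.81% of all 19938 genes were higher and 1.47% were lower (3.28% either way). When limma was run on only the 8638 genes averaging 6 or more, 3 of the 7 were higher and 0 lower. Of those 8638 genes, 555 were higher and 366 lower. The 4 miR-709 arrays all lay above the 3 Cel-239b arrays for 3 of the 7, and all below for 0, against 7.44% and 4.91% of all genes (12.3% on either side). The log2 fold change was above 0 for 6 of the 7 and for 54.6% of all genes. The median log2 fold change of the 7 was 0.14, and that of all genes was 0.01. All 7 had a mean log2 signal of at least 6, so no enzyme was lost to a filter on dim genes, though the Cel-239b arrays alone averaged 5.94 for *Hgd*.

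**Figure D1:**
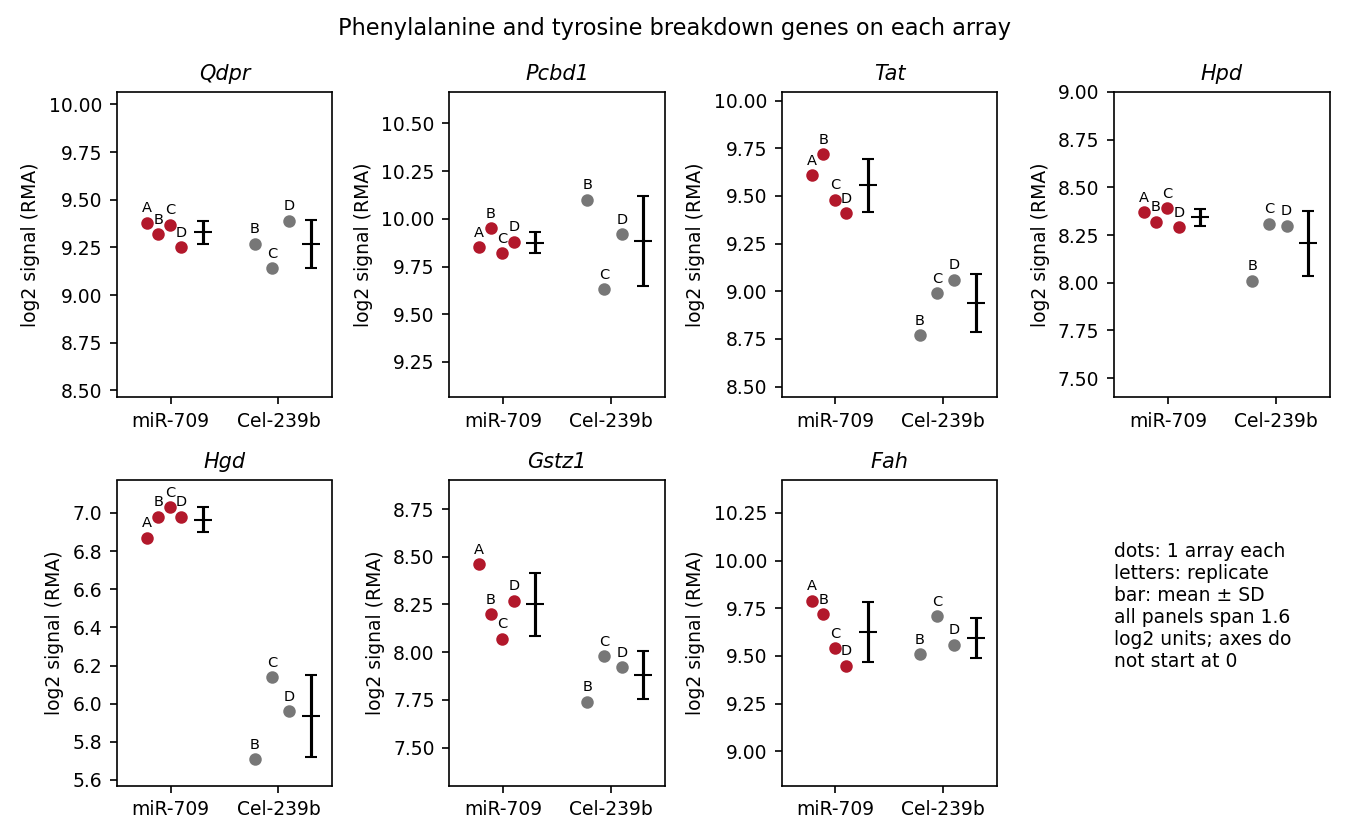
Log2 signal (RMA, y axis) of the 7 genes, with 1 point per array for miR-709 (red, n = 4) and Cel-239b (grey, n = 3) and bars for mean ± SD; letters are replicates, and the axes cover equal spans and do not start at 0. The miR-709 arrays lie clear of the Cel-239b arrays for *Tat*, *Hgd* and *Gstz1* and overlap them in the other panels.

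The cofactor enzymes come first in the route. *Qdpr* (probe set 10529895), the dihydropteridine reductase that restores tetrahydrobiopterin, had log2 signals of 9.38, 9.32, 9.37 and 9.25 on miR-709 replicates A to D, against 9.27, 9.14 and 9.39 on Cel-239b replicates B to D. The highest of the 7 values was a control array, and the groups overlapped. The log2 fold change was 0.06 (standard error 0.07, 95% interval -0.10 to 0.22). *Pcbd1* (probe set 10363455), the dehydratase of the same cycle, which is also known as a partner of the transcription factor HNF1, had 9.85, 9.95, 9.82 and 9.88 with miR-709, against 10.10, 9.63 and 9.92 with Cel-239b. Its control arrays spanned both the highest and the lowest value, with an SD of 0.24 (n = 3) where the miR-709 arrays had 0.06 (n = 4). The log2 fold change was -0.01 (standard error 0.10, 95% interval -0.23 to 0.22). Neither gene was called, and the intervals do not show that the levels were the same.

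*Tat* (probe set 10575349), tyrosine aminotransferase, starts the breakdown of tyrosine and is a textbook target of glucocorticoids in liver. Its log2 signals were 9.61, 9.72, 9.48 and 9.41 on miR-709 replicates A to D, against 8.77, 8.99 and 9.06 on Cel-239b replicates B to D. Every miR-709 array was above every control array, and the closest pair lay 0.35 apart. *Tat* was 1.53-fold higher (log2 fold change 0.61, standard error 0.09, 95% interval 0.40 to 0.83), and 64 of the 19938 genes had a larger log2 fold change. *Tat* was called with each of the 7 arrays left out, but not by the methods' t-test after Benjamini-Hochberg adjustment.

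*Hpd* (probe set 10533612), the dioxygenase that makes homogentisate, stands between *Tat* and *Hgd* and changed less than either in these arrays. It had 8.37, 8.32, 8.39 and 8.29 with miR-709, against 8.01, 8.31 and 8.30 with Cel-239b. The miR-709 arrays lay close together, and the control mean was set apart from them mainly by replicate B. The log2 fold change was 0.14 (standard error 0.08, 95% interval -0.05 to 0.32), and it was 0.04 without Cel-239b replicate B.

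*Hgd* (probe set 10435626), homogentisate dioxygenase, had the largest change of the 7. Its log2 signals were 6.87, 6.98, 7.03 and 6.98 on miR-709 replicates A to D, against 5.71, 6.14 and 5.96 on Cel-239b replicates B to D. The miR-709 arrays were within 0.16 of each other and the lowest of them was 0.73 above the highest control array. The mean was 6.97 ± 0.07 (SD, n = 4) with miR-709 and 5.94 ± 0.22 (SD, n = 3) with Cel-239b. This was a 2.04-fold rise (log2 fold change 1.03, standard error 0.10, 95% interval 0.81 to 1.24), and 2 of the 19938 genes had a larger one. *Hgd* was called with each of the 7 arrays left out.

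*Gstz1* (probe set 10397507), maleylacetoacetate isomerase, is a glutathione transferase of the zeta class that also handles dichloroacetate. It had 8.46, 8.20, 8.07 and 8.27 with miR-709, against 7.74, 7.98 and 7.92 with Cel-239b. The groups did not overlap, but the lowest miR-709 array, replicate C, was only 0.09 above the highest control array. The fold was 1.29 (log2 fold change 0.37, standard error 0.10, 95% interval 0.15 to 0.59), which did not pass the threshold over all genes and did pass it when dim genes (mean log2 signal under 5) were left out.

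*Fah* (probe set 10565315), fumarylacetoacetase, closes the route. Its values of 9.79, 9.72, 9.54 and 9.45 with miR-709 enclosed the 9.51, 9.71 and 9.56 with Cel-239b. Replicates A and B were the highest of all 7 arrays and replicate D was the lowest. The log2 fold change was 0.03 (standard error 0.09, 95% interval -0.18 to 0.24).

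**Figure D2:**
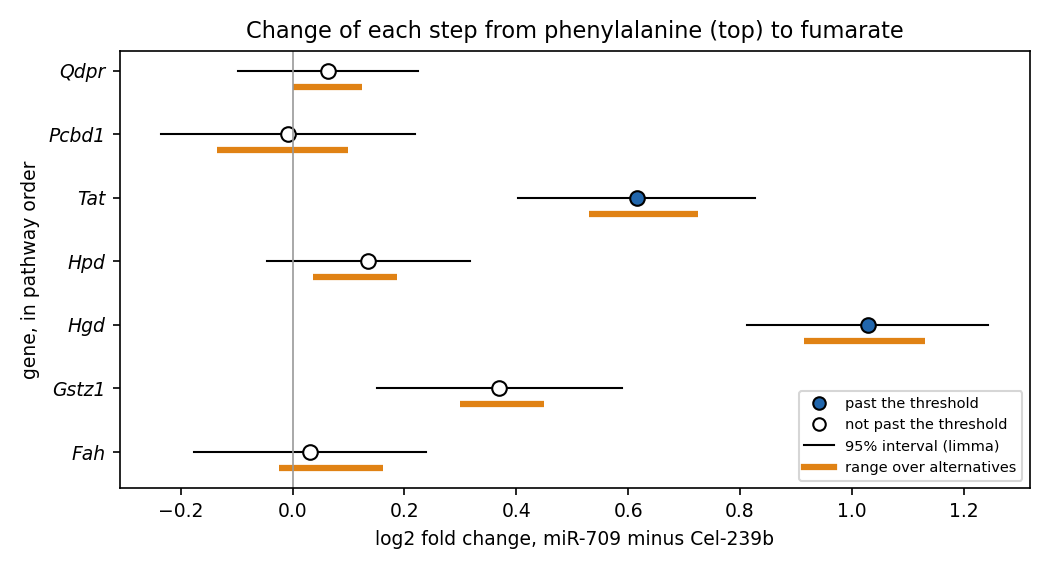
Log2 fold change (x axis, miR-709 minus Cel-239b) of the 7 genes from the start of the route at the top to its end, with the 95% interval from limma (black line) and the range over 21 alternative analyses (orange bar). *Tat* at 0.61 and *Hgd* at 1.03 are filled as past the threshold, while *Hpd* between them is at 0.14 and *Fah* at the end is at 0.03.

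The measured changes of the steps were not of like size. The log2 fold change was highest at the ring-opening step (*Hgd*, 1.03) and at the first step of tyrosine breakdown (*Tat*, 0.61). It was 0.37 at the isomerase step (*Gstz1*) and between -0.01 and 0.14 for the other 4 genes. The 95% intervals were 0.81 to 1.24 for *Hgd*, 0.40 to 0.83 for *Tat* and 0.15 to 0.59 for *Gstz1*. Those of *Qdpr*, *Pcbd1*, *Hpd* and *Fah* all held 0, and the intervals do not compare the steps. The difference between steps was not tested, because the genes were chosen on this comparison.

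The genes also differed in how the replicates of 1 treatment spread. Among miR-709 arrays the SD ran from 0.05 for *Hpd* to 0.16 for *Gstz1*, and among Cel-239b arrays from 0.10 for *Fah* to 0.24 for *Pcbd1*. Cel-239b replicate B was the lowest control array for *Tat*, *Hpd*, *Hgd*, *Gstz1* and *Fah*, by 0.23 below the control mean for *Hgd*, and it was the highest for *Pcbd1*, by 0.22. Without that array the log2 fold change was 0.92 for *Hgd* and 0.53 for *Tat*, and both were still called. On the miR-709 side, *Tat* averaged 0.72 above the control mean on replicates A and B and 0.50 on C and D, the arrays with higher interferon response genes. *Gstz1* averaged 0.45 on A and B and 0.29 on C and D. *Fah* averaged 0.16 on A and B and -0.10 on C and D. *Hgd* ran the other way, with 0.99 on A and B and 1.07 on C and D. With C and D left out, an alternative added after seeing the data, *Hgd* was still called and *Tat* was not.

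**Figure D3:**
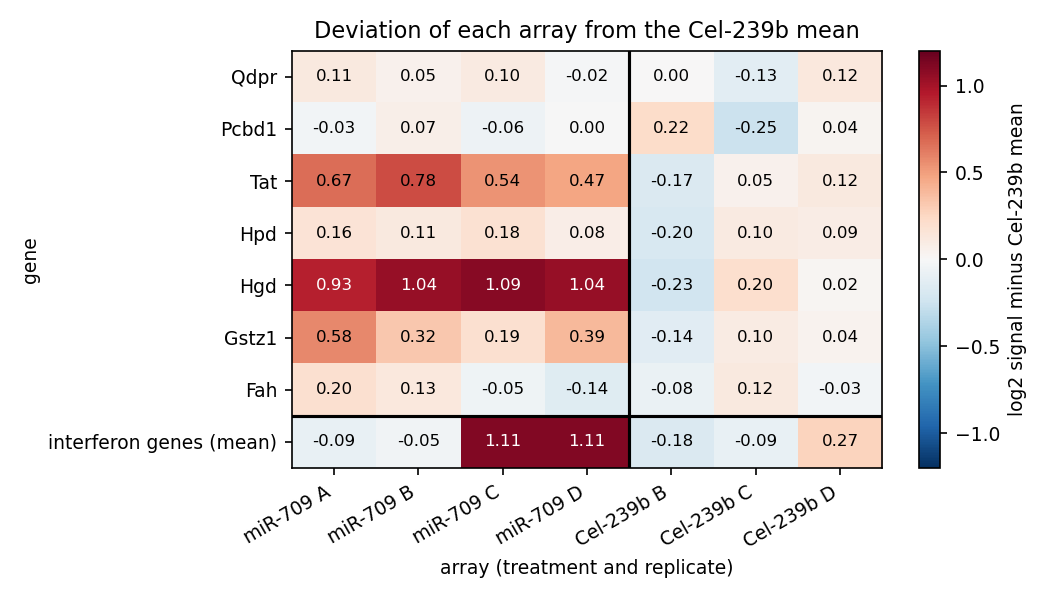
Log2 signal of each array (columns, miR-709 left and Cel-239b right of the line) minus the Cel-239b mean, for the 7 genes and for the mean of 10 interferon response genes (rows; colour and printed value give the difference). *Hgd* is at 0.93 to 1.09 on all 4 miR-709 arrays, while the interferon genes are at 1.11 on replicates C and D.

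Among genes whose log2 signal averaged 6 or more, those whose pattern over arrays was most like *Hgd* were *Ccdc71l* (Pearson r = 0.997 over 7 arrays), *Uba6* (0.991), *Fyttd1* (0.990), *Dpm3* (0.988) and *Gps1* (0.987), out of 8631 genes compared. The arrays share their treatments, which separate *Hgd* into high and low values, and r takes no account of the size of a difference. *Gps1*, a COP9 signalosome subunit, had a log2 fold change of 0.97, near the 1.03 of *Hgd*, whereas that of *Dpm3* was 0.07.

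Among all 19938 genes, 2987 had an unadjusted limma p under 0.05. Of 11 measured genes of tyrosine side routes and close relatives, 0 were called by limma, with a median log2 fold change of 0.01 and 0 at an unadjusted p under 0.05. This list held *Got2*, an aminotransferase that can also accept tyrosine (0.09, standard error 0.06, adjusted p = 0.545), and *Aadat*, another aminotransferase (0.16, standard error 0.08, adjusted p = 0.372). Of 5 tetrahydrobiopterin genes 0 were called, 0 had an unadjusted p under 0.05 and the median was 0.07, with *Gch1*, which starts synthesis of the cofactor, at 0.23 (standard error 0.11, adjusted p = 0.347). Neither list had a call with the methods' t-test after adjustment. Of 8 genes that handle fumarate and acetoacetate, the end products of *Fah*, 3 had an unadjusted p under 0.05 and 1 was called, with a median of -0.06. This was *Oxct1*, which was lower, at -0.54 on the log2 scale (standard error 0.12, adjusted p = 0.0464). *Oxct1*, which activates ketone bodies for use outside the liver, lost its call without miR-709 replicate A, C or D or Cel-239b replicate B, C or D (adjusted p = 0.0885 to 0.184, and 0.0169 to 0.281 over all alternatives).

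The rises of *Tat* and *Hgd* stood beside smaller changes in the breakdown of other amino acids. In 6 such lists with 52 measured genes, 5 were higher (9.62%, against 1.81% of all genes) and 1 was lower (1.47% of all genes were). The median log2 fold change was 0.14 as for the 7 genes, and the largest rise was 0.53 against 1.03 for *Hgd*. The genes that rose were *Ido2* and *Kmo* of tryptophan breakdown, *Aldh6a1* of valine breakdown, *Gcdh* of lysine and tryptophan breakdown and *Cdo1*, the cysteine dioxygenase. *Aass*, the first enzyme of lysine breakdown, fell by 0.40 on the log2 scale (standard error 0.07, adjusted p = 0.0185). *Aldh6a1* rose by 0.46 on the log2 scale (standard error 0.07, adjusted p = 0.00994) and was called with each array left out, though not with the fixed replicate block or without both miR-709 C and D, and the other 5 of these 6 genes each lost their call without at least 1 array. *Ido2* did so without miR-709 replicate A, B or D or Cel-239b replicate C or D, and *Kmo* without miR-709 replicate A, B or D or Cel-239b replicate B or C. *Aass* did so without miR-709 replicate D or any Cel-239b replicate, *Cdo1* without miR-709 replicate B or C or Cel-239b replicate C or D, and *Gcdh* without any single array other than miR-709 replicate C. The adjusted p values of these 5 genes were then 0.0512 to 0.124. The methods' t-test called 0 of the 52 after adjustment. At an unadjusted p under 0.05 it called 15 higher and 3 lower, against 1549 and 936 of all 19938 genes. With the fixed replicate block 2 of the 52 were higher and 0 were lower. The share over all genes includes many dim genes. When only the 8638 genes averaging 6 or more were tested, 8 genes of the 6 lists were higher and 1 was lower. Of those 8638 genes, 555 were higher and 366 lower.

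**Figure D4:**
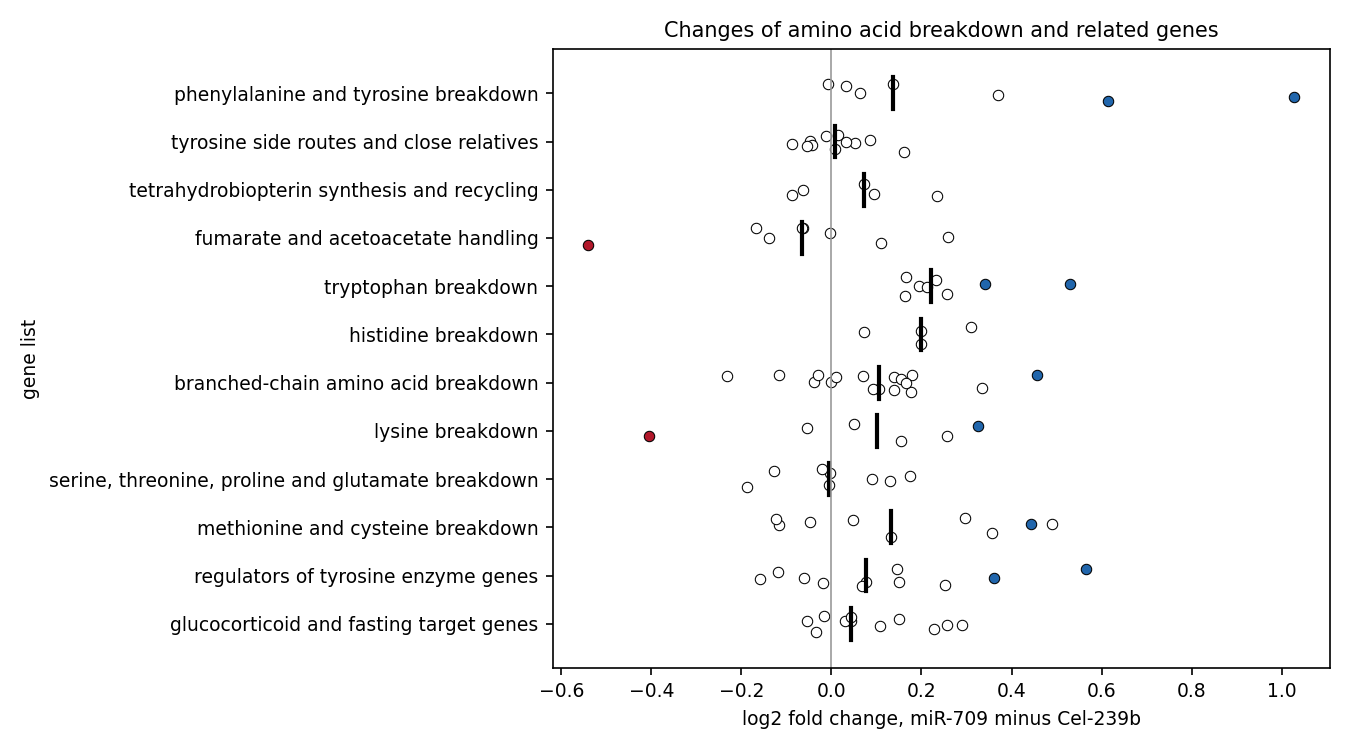
Log2 fold change (x axis, miR-709 minus Cel-239b) of each measured gene (dots; blue when called higher and red when called lower at an adjusted p under 0.05 from limma, white otherwise) in 12 gene lists, and black bars at the medians; dots are spread vertically for legibility alone. *Hgd* at 1.03 and *Tat* at 0.61 are the rightmost dots, and the medians of the lists lie between -0.06 and 0.22.

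Among 11 transcription factors and related genes of the hepatocyte, 2 were higher and 0 were lower, where 1.81% of all genes were higher and 1.47% lower. Of these 11 genes, 10 averaged 6 or more, as did 8638 of all 19938 genes. *Hnf4a*, a nuclear receptor that maintains the expression of many hepatocyte enzymes, had log2 signals of 9.94, 9.95, 9.93 and 10.03 on miR-709 replicates A to D, against 9.45, 9.43 and 9.31 on Cel-239b replicates B to D. It rose by 0.57 on the log2 scale (standard error 0.06, adjusted p = 0.00104) and was called in all 20 alternatives with an adjusted p (2.9e-04 to 0.0366). The other was *Crebl2*, a relative of CREB (0.36, standard error 0.06, adjusted p = 0.00773), which was not called with the replicate block or without both miR-709 C and D. *Cebpa* was at 0.25 (standard error 0.06, adjusted p = 0.0728) and was not called, though it was in 2 of 20 alternatives. The glucocorticoid receptor gene *Nr3c1* was at 0.08 on the same scale (standard error 0.05, adjusted p = 0.556). The miR-709 arrays all lay above the Cel-239b arrays for *Hnf4a*, *Crebl2*, *Cebpa* and *Nr3c1*. That is 4 of these 11 genes, with 0 all below, against 7.44% and 4.91% of all genes. Of 11 other glucocorticoid and fasting target genes 0 were called by limma, with a median of 0.04, and 0 by the methods' t-test after adjustment. An unadjusted limma p under 0.05 was found for 2 of them and for 2987 of all 19938 genes. *G6pc* was at 0.29 (standard error 0.15, adjusted p = 0.402) and *Tdo2* at 0.26 (standard error 0.10, adjusted p = 0.285). *Pck1*, of gluconeogenesis, was at 0.23 (standard error 0.08, adjusted p = 0.220), where *Tat*, a target of the same hormones, was at 0.61. The mean log2 signal was 5.89 for *Pck1* and 9.29 for *Tat*, and the difference between their changes was not tested.

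The start regions of the 7 genes were searched for short motifs of such factors, in RefSeq windows of 300 bases (250 before to 50 after each annotated start, build GRCm38.p6). All 7 genes matched, with 8 windows since *Gstz1* has 2 starts. The *Hgd* window held 41.0% G and C, below the 53.7% to 64.3% of the other 7 windows and the median of 52.7% over all 32851 windows. The hexamer AGGTCA of nuclear receptors was in the *Hgd* and *Pcbd1* windows and in 16.3% of all windows. The C/EBP motif TTGNNCAA was in the *Hgd* window, 1 of its 2 copies overlapping a CCAAT box, and in 6.40% of all windows. The CCAAT box was in 5 of the 8 windows (*Qdpr*, *Tat*, *Hgd* and both of *Gstz1*) and in 37.4% of all. TGTTCT, the hexamer of the glucocorticoid receptor, was in the *Qdpr* window and 19.0% of all, and TATAAA was in the *Pcbd1* and *Hgd* windows and 13.6% of all. CAAAGTC (HNF4A, 4.44% of all), TGTTTAC (forkhead factors, 3.65%) and the palindromic HNF1 motif (0.00913%) were in none of the 8, which says only that these letters are not in these windows. Both strands were searched, and a match is a description and not a binding site.

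Some of the matches shortly before a start are printed here, for the 3 genes whose arrays did not overlap, on the strand of the gene, with the motif, or its reverse complement, in capitals. For *Hgd* these are the hexamer that begins 84 bases before the start (chr16:37580057-37580086, plus strand, reverse complement) and the C/EBP motif 49 bases before it (chr16:37580093-37580122, plus strand), chosen because among the 7 genes the C/EBP motif was in *Hgd* alone and the hexamer in *Hgd* and *Pcbd1*. A CCAAT box 23 bases before the *Hgd* start and a second hexamer after it are not printed. Also not printed are the *Hgd* matches that begin 139 to 150 bases before the start. They include TATAAA, which was likewise in *Hgd* and *Pcbd1* alone among the 7 genes. For *Tat* they are the CCAAT boxes that begin 72 bases (chr8:109990352-109990381, plus strand) and 40 bases (chr8:109990384-109990413, plus strand, reverse complement) before the start. Another CCAAT box, 168 bases before the *Tat* start, is not printed, and the labels far and near compare only the printed boxes. For *Gstz1* they are the CCAAT box 62 bases before its upstream start (chr12:87147091-87147120, plus strand) and the one 41 bases before its downstream start (chr12:87157550-87157579, plus strand, reverse complement).
Hgd hexamer: agctctcagaaaTGACCTggggttaaaaaa
Hgd C/EBP motif: aaaaaaaaaggTTGTGCAAgaatttcgatg
Tat CCAAT box, far: cctcactctcaaCCAATagcataagggctt
Tat CCAAT box, near: ggcccaacgcccATTGGctgaaactatttc
Gstz1 CCAAT box, upstream start: cgcgccctcaagCCAATcagagggtggcgt
Gstz1 CCAAT box, downstream start: agccgctttcccATTGGctcctgagaccca
The CCAAT box was also found in the *Qdpr* window, whose gene had a log2 fold change of 0.06.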

How the data were processed

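Mouse Gene 1.0 ST arrays (Affymetrix) measured total RNA of mouse primary hepatocytes. The authors deposited 1 log2 signal for each probe set and array, made with Partek and RMA in versions not given in the sources used here. RMA corrects background, equalises array distributions and summarises probe sets, so differences shared by most genes are removed. The raw scans were not used here. Of 28853 probe sets, 21789 had 1 gene symbol, 1621 several and 5443 none, and 21698 symbols were checked through gene numbers. The brightest probe set of each of 999 genes with several was used, which left 19938 genes.

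The treatments were compared with limma (version 3.58.1, R version 4.3.3) on all genes, 2-sided, with Benjamini-Hochberg adjustment. Called means an adjusted p under 0.05, except with the unadjusted t-test, where it means an unadjusted p under 0.05. The methods' 1-way ANOVA, which for 2 groups is the methods' t-test, was an alternative. The test was checked on simulated data. The 7 genes, the other gene lists and the motifs were chosen with earlier results of these data known. Named were the 7 genes, the 5 genes most like *Hgd*, the 5 most like all 7 within treatments and, from each list, genes among the 4 that changed most (calls before the rest). *Nr3c1* was named after its value was seen. Of 163 genes in the lists 149 were measured. Precision is limited by having 7 arrays (the standard error of a gene's difference had a median of 0.08).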

Additional observations from a re-analysis of the deposited data

Results flagged for a closer look

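Among the 83 genes examined for a miR-709 array far from the other miR-709 arrays, 3 values stood apart, and chance marks about 1 in 20 groups of this size. None was a gene of phenylalanine and tyrosine breakdown. *Ftcd*, of histidine breakdown, was 9.26 on miR-709 replicate D and 9.40 to 9.41 on the other 3 miR-709 arrays. *G6pc*, of gluconeogenesis, was 6.20 on replicate B and 5.62 to 5.68 on the others. *Dpm3* was 6.98 on replicate D and 6.97 on each of the others, a gap of the last decimal deposited.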

How the results depend on the processing

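Over 21 alternatives *Hgd* was called in 21 (log2 fold change 0.92 to 1.13), *Tat* in 18 (0.53 to 0.72), *Gstz1* in 3 (0.30 to 0.45) and *Qdpr*, *Pcbd1*, *Hpd* and *Fah* in 0. The number of the 7 genes called higher was 1, with *Tat* lost, by the methods' t-test after adjustment (113 higher and 113 lower among all genes), with the replicate letter as a fixed replicate block (180 higher) and without miR-709 C and D (76 higher and 92 lower), and it was 2 with any 1 array left out. Among all genes, 361 were called higher and 293 lower. There were 555 higher among genes averaging 6 or more, and 1549 higher and 936 lower by the unadjusted t-test. With each array left out there were 180 to 294 higher and 181 to 244 lower. *Gstz1* passed among genes averaging 5 or 6 and more (fewer genes tested) and with the unadjusted t-test. The fold change of *Pcbd1* was above 0 in 6 of 21 alternatives and that of *Fah* in 17. Scaling moved the median of all genes by under 0.1. Arrays with the same letter correlated at only 0.02 to 0.05 in their deviations. Cel-239b replicates B and D correlated best with the miR-709 array of their own letter, while Cel-239b replicate C did so with miR-709 replicate A. The letters were not taken as pairs. Other named genes lost a call in 81 cases and gained one in 30, a count that includes passes of the unadjusted t-test. Dim probe sets limit what can be seen of other cell types.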

Other observations

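After subtraction of the treatment means, the genes with the highest mean correlation with the 7 enzymes over the 7 arrays were *Dctn2* (0.49), *Aldh6a1* (0.49), *Atp5d* (0.49), *C8g* (0.49) and *Cuta* (0.48). The 7 did not all deviate alike, which limits how high this mean can be for any gene. It therefore does not show how closely other genes followed the 7. Among the 7 themselves, *Hgd* and *Hpd* deviated alike (0.81) and *Hgd* and *Pcbd1* oppositely (-0.87), values that rest on 7 arrays and 2 fitted means. *Cps1*, the first enzyme of the urea cycle and a hepatocyte marker, rose by 0.68 on the log2 scale (limma standard error 0.12, adjusted p = 0.0136). The other 8 measured hepatocyte markers were not called. *Cps1* lost its call without miR-709 replicate B or C or Cel-239b replicate B or D (adjusted p = 0.0525 to 0.0742, and 0.00436 to 0.157 over all alternatives).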
